A study of Mus musculus with 9 samples.

Results

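The 9 genes described here encode receptors for norepinephrine and the proteins that make, break down and read cAMP in brown adipose tissue (BAT): the beta-adrenergic receptor genes Adrb1 and Adrb3, the alpha-1A receptor gene Adra1a, the stimulatory G protein gene Gnas, the adenylyl cyclase gene Adcy3, the phosphodiesterase genes Pde3b, Pde4b and Pde4d, and Prkar2b, a regulatory subunit gene of protein kinase A (PKA). They were chosen by gene symbol for this role, with earlier results of these data known, as were the further gene lists. All 9 were listed in each of the 3 deposited tables, which together hold 16937 genes. RNA was sequenced from BAT of 9 adult mice on the C57Bl/6J background in 3 groups of 3 libraries. Wild-type mice stayed at 23 °C (WT RT) or spent 8 h at 4 °C (WT Cold), and mice with a whole-body deletion of Gcn2, a kinase that senses amino acid shortage, also spent 8 h at 4 °C (GCN2 KO Cold). All mice had been housed alone at 23 °C for 5 days beforehand. Both sexes were used in the study, but the labels give no sex for a library and the comparisons were not adjusted for it. No GCN2 KO group at 23 °C was analysed here, so whether the deletion changes the response to cold was not tested.

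When a mouse is placed in the cold, sympathetic nerves release norepinephrine in BAT. Beta-adrenergic receptors, chiefly the beta-3 receptor on mature brown adipocytes, activate the stimulatory G protein, which turns on adenylyl cyclase. The cAMP formed releases the catalytic subunits of PKA from their regulatory subunits, and PKA then drives lipolysis and the transcription of genes such as Ucp1, while phosphodiesterases hydrolyse cAMP and end the signal. Alpha-1 receptors act through another G protein and calcium.

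Depth was similar, with 27058799 to 30768064 reads per library assigned to listed genes. Eif2ak4, which encodes GCN2, was not lower in the libraries with the GCN2 KO Cold label (356 ± 13.3 normalized counts, that is reads divided by a size factor of the library, SD, n = 3) than in WT Cold (209 ± 33.2, SD, n = 3), a log2 fold change of 0.78 with an adjusted p of 0.0932 from limma, the main test, and 0.0028 from DESeq2. Tests were made over all genes of a table, and a gene passed at an adjusted p under 0.05. These are totals over exons, and whether the deleted exons are covered was not tested, so that group is called here by its label. The title of 1 sample of that group also says WT, and it was placed by its genotype label; which library it gave is not known. The WT RT libraries carry another code prefix than both cold groups, and cold and any difference in preparation cannot be told apart. All 7 brown adipocyte markers were listed in every group. Their levels are given as CPM, the reads of a gene relative to the reads of its library that were assigned to listed genes. They summed to 18058 to 19984 CPM in WT RT, 23576 to 25192 in WT Cold and 27501 to 28459 in the libraries with the GCN2 KO Cold label. Between WT RT and WT Cold, Ucp1, also counted here as a cAMP-induced gene, and Elovl3 rose, Plin1 fell and the other 4 did not pass (limma). Libraries are named A, B and C within a group, and the labels do not tie a library to a mouse.

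Reference promoters show what lies ahead of some of these genes. The set of RefSeq promoters used here (GRCm38.p6) held entries for 6 of the 9 genes, with 14 starts. It held none for Adrb3, Adra1a and Pde3b, which were not searched. The 250 bases before each start were read on the strand of the gene. A single window each of Adcy3, the gene with the largest rise, of Prkar2b, which fell, and of Adrb1, which holds the core of the cAMP response element (CRE), is printed 5′ to 3′. Capitals mark the CRE core, TGACG on either strand.
Adcy3, chr12:4133903-4134152, plus strand: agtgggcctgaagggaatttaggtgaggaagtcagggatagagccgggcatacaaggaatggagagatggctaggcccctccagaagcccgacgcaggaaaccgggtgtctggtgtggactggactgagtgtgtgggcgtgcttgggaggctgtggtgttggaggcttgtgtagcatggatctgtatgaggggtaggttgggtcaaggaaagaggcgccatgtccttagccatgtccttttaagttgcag
Prkar2b, chr12:32061278-32061527, minus strand: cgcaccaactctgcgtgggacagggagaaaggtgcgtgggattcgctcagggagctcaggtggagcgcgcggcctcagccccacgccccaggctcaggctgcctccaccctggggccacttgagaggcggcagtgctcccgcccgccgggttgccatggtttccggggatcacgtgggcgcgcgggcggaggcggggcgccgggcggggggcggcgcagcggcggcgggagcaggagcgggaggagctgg
Adrb1, chr19:56721867-56722116, plus strand: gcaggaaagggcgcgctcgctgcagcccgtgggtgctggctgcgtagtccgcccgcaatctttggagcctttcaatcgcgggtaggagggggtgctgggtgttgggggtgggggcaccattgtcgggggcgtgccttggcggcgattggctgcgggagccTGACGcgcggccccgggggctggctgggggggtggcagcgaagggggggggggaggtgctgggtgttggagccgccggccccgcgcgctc
The full CRE, TGACGTCA, was in none of the 14 windows and in 1.55% of 32851 mouse promoter windows of the same length. The core TGACG, which is part of the full CRE, was in 5 of the 14, among them Adrb1 at position -90 from the start and 2 overlapping windows of Gnas that hold the same site, and in 17.8% of all windows. AAAGGTCA, the site of NR4A receptors (1.34% of all windows), TCAAGGTCA, that of estrogen-related receptors (0.387%), and TTGCGCAA, a C/EBP palindrome (0.164%), were in none of the 14, each read on both strands. Of the printed windows, 6 bases for Adcy3 and 19 for Prkar2b lie in annotated exons. Adcy3 and Prkar2b each have another window, not printed, of which 250 and 58 bases lie in exons. Both windows of Adcy3 lie near the first end of a gene that spans positions 4133103 to 4213525, and starts further inside it were not searched. Starts of the other genes without an entry were not searched either.

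WT Cold was compared with WT RT to ask how 8 h of cold changed the pathway in wild-type BAT. Adcy3 rose to 4.36 times its room temperature level, Pde4d to 2.27 times and Pde3b to 1.42 times, while Adrb3 fell to 0.456 and Prkar2b to 0.656 times theirs. The receptor and the regulatory subunit thus fell in the same libraries in which the cyclase and a pair of phosphodiesterases rose. Gnas, Adra1a, Adrb1 and Pde4b did not pass the test. In all, 5 of the 9 genes passed at an adjusted p under 0.05 (limma), 3 higher and 2 lower, where 27.7% of all 16679 genes in the table did (13.6% higher and 14.1% lower). With the added requirement of an absolute log2 fold change over 1, 3 of the 9 passed (Adcy3, Pde4d and Adrb3) and 8.14% of all genes. The libraries of the groups did not overlap for 6 of the 9, against 45.5% of all genes.

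Markers of other cells differed between the same groups. The 4 macrophage markers summed to 121 to 184 CPM in WT RT and 50.1 to 97.3 in WT Cold. The 5 endothelial markers summed to 501 to 553 and 585 to 715, and the 3 red blood cell markers to 214 to 278 and 461 to 1860. Of the 5 endothelial markers, 2 passed as higher and 0 as lower (limma), where 13.6% and 14.1% of all genes did. Tie1, which is among the 5, had lower CPM in WT Cold (32.4 to 35.8) than in WT RT (41.2 to 44.5). The 8 skeletal muscle markers overlapped between these groups (2111 to 2560 and 1895 to 3117 CPM). Their part in the changes was not tested. In bulk tissue, fewer cells of a type and less RNA per cell cannot be told apart.

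**Figure D1:**
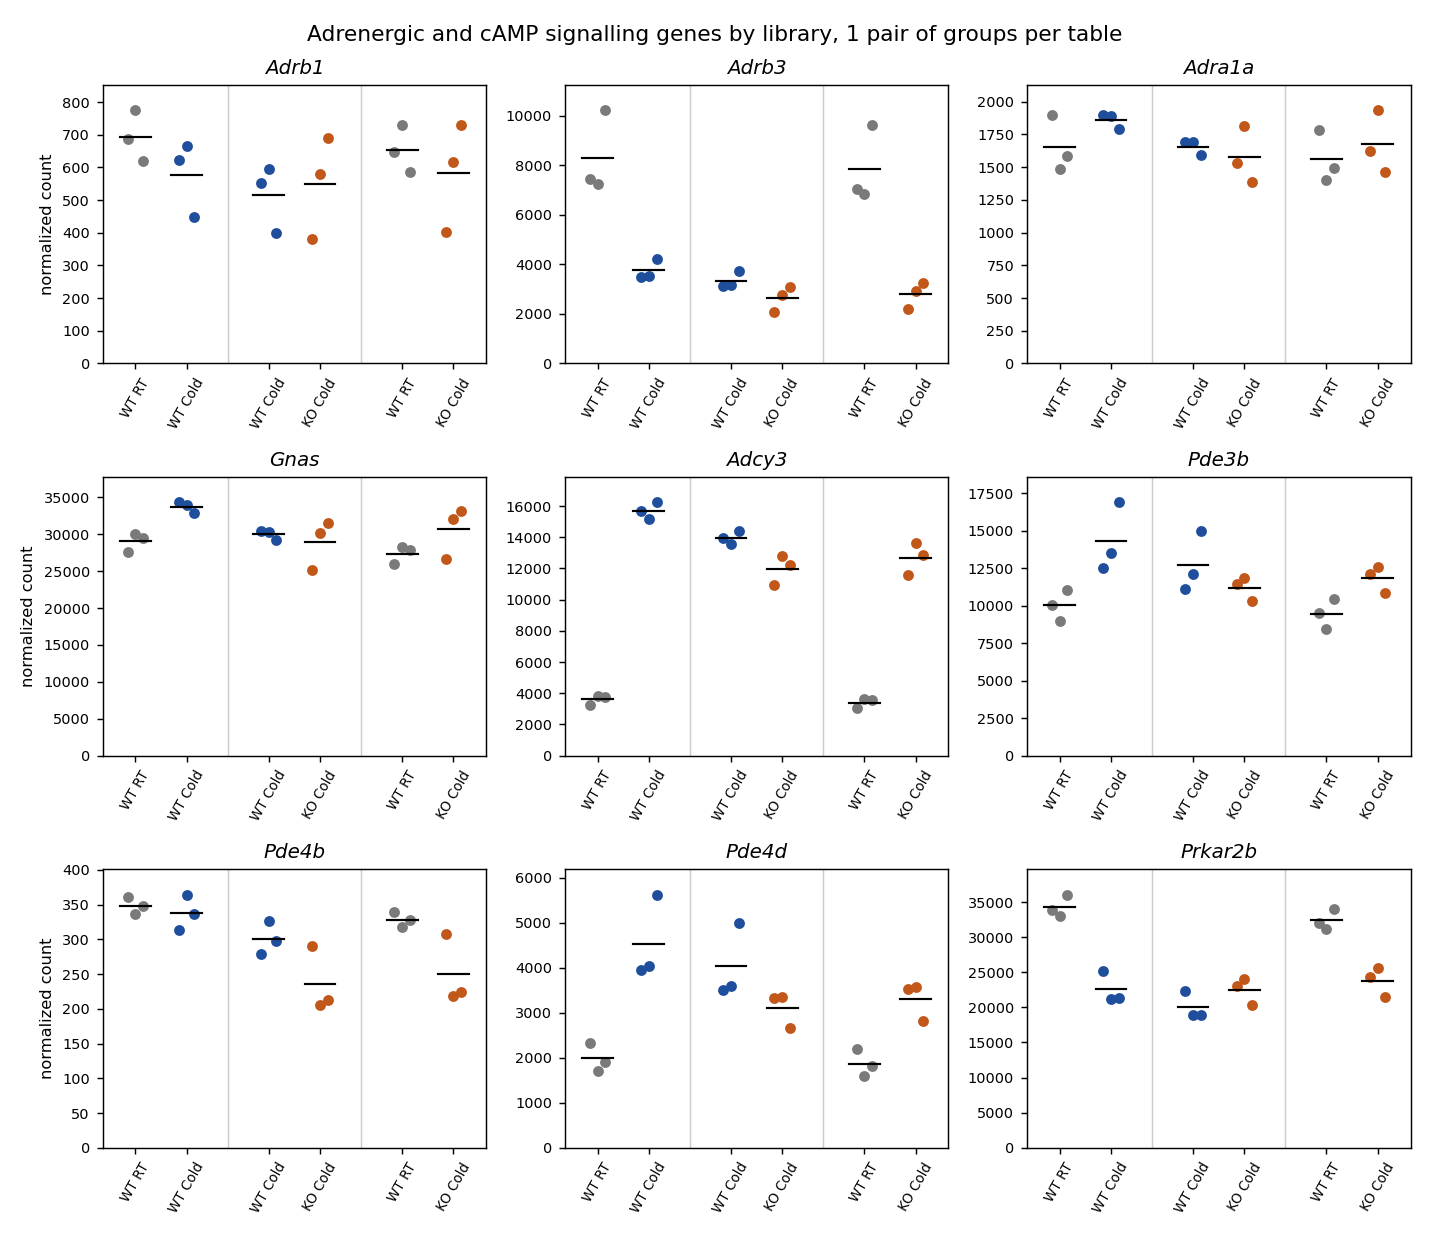
Normalized counts (y axis, from 0) of each of the 9 genes by library, with 1 point per library and a black line at the mean of 3 libraries. Each panel holds the 3 tables, left to right WT RT and WT Cold, WT Cold and GCN2 KO Cold, and WT RT and GCN2 KO Cold, which were normalized separately. Adcy3 sits between 3231 and 3852 in WT RT and between 15183 and 16231 in WT Cold.

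Among the 3 receptor genes of the 9, only Adrb3 passed the test. Adrb3, the main beta receptor gene of rodent adipocytes (chr8:27225776-27250616, minus strand, GRCm38), had 7456, 7244 and 10225 normalized counts in the WT RT libraries A, B and C and 3512, 3540 and 4216 in those of WT Cold. All WT Cold libraries were below all WT RT libraries, and WT RT C stood above the other two of its group. Its fall on the log2 scale was -1.13 (SE 0.14, adjusted p = 0.00155, limma), and without WT RT C it was -0.97, past the p threshold but no longer past a log2 fold change of -1. Gm45470, annotated on the opposite strand and overlapping an exon of Adrb3, fell as well (log2 fold change -0.72, adjusted p = 0.00695, limma; named after its values were seen), and since no strand setting is given in the sources used here, reads from the overlap cannot be told apart.

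Adrb1, the beta-1 receptor gene best known from the heart (chr19:56722199-56733113), had 687, 775 and 621 normalized counts in WT RT and 621, 665 and 448 in WT Cold. The groups overlapped, with WT Cold C lowest. Its log2 fold change was -0.28 with a 95% interval of -0.66 to 0.10 (adjusted p = 0.243, limma), which leaves room for a fall as well as for no change.

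Adra1a (chr14:66635251-66771168) had 1896, 1486 and 1582 normalized counts in WT RT and 1899, 1892 and 1789 in WT Cold. The WT Cold libraries lay close together inside or just above the wider range of WT RT. Its log2 fold change was 0.18 with an interval of -0.06 to 0.41 (adjusted p = 0.237, limma). None of 5 further adrenergic receptor genes passed (limma, DESeq2 or edgeR, and 0 at an unadjusted p under 0.05), with log2 fold changes from -0.22 to 0.76. Among all genes 27.7% passed in limma and 40.9% had an unadjusted p under 0.05.

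Gnas, which encodes the stimulatory alpha subunit (chr2:174284320-174346744), had 27581, 30041 and 29485 normalized counts in WT RT and 34328, 33940 and 32896 in WT Cold. The groups did not overlap, but the difference was small. Its log2 fold change was 0.22 (SE 0.07) with an adjusted p of 0.0621 from limma, 0.0631 from edgeR and 0.0434 from DESeq2, so the call depends on the tool. The locus is imprinted and has several starts with nested transcripts, and 2 genes on the opposite strand (Nespas and Gm20721) overlap its exons, which a gene total does not separate.

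Adcy3, the adenylyl cyclase gene known to be induced by cold in BAT (chr12:4133103-4213525), showed the largest change of the 9 genes in this comparison. It had 3231, 3852 and 3747 normalized counts in WT RT and 15666, 15183 and 16231 in WT Cold. The lowest WT Cold library was far above the highest WT RT library, and the libraries within a group lay close together. It was higher in WT Cold by 2.12 on the log2 scale (95% interval 1.93 to 2.32, SE 0.08, adjusted p = 2.3e-05, limma). A shorter cold-inducible transcript from an internal start is known for this gene, and these totals do not separate transcripts. Cenpo, which overlaps an exon on the opposite strand, had a log2 fold change of 0.14 (adjusted p = 0.581, limma; named after its values were seen) at a mean of 180 normalized counts.

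Set beside its family, Adcy3 changed place. Among 9 listed adenylyl cyclase genes, Adcy6 gave 41.5 ± 2.05% of the length-scaled reads in WT RT and Adcy3 35.1 ± 3.01% (SD, n = 3 each). In WT Cold, Adcy3 gave 69.8 ± 4.31% and Adcy6 20.7 ± 3.85%, at nearly the same Adcy6 level (23.8 ± 0.962 and 24.7 ± 5.74 CPM per kb). The family sum was 57.4 ± 0.785 CPM per kb in WT RT and 119 ± 7.12 in WT Cold. Of the other 8 cyclases tested, 1 rose and 3 fell, where 13.6% of all genes were called higher and 14.1% lower. Adcy4 rose (log2 fold change 0.63), and Adcy10, the soluble cyclase (-1.89), Adcy5 (-0.72) and Adcy9 (-0.64) fell. All 4 have adjusted p values under 0.05 in limma.

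The ratio of cyclase to receptor reads was higher in every cold library than in every WT RT library. For every read of Adrb3 there were 0.433, 0.532 and 0.366 reads of Adcy3 in WT RT, 4.46, 4.29 and 3.85 in WT Cold, and 5.24, 4.65 and 3.97 in the libraries with the GCN2 KO Cold label. A ratio within a library does not depend on how libraries are scaled.

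**Figure D2:**
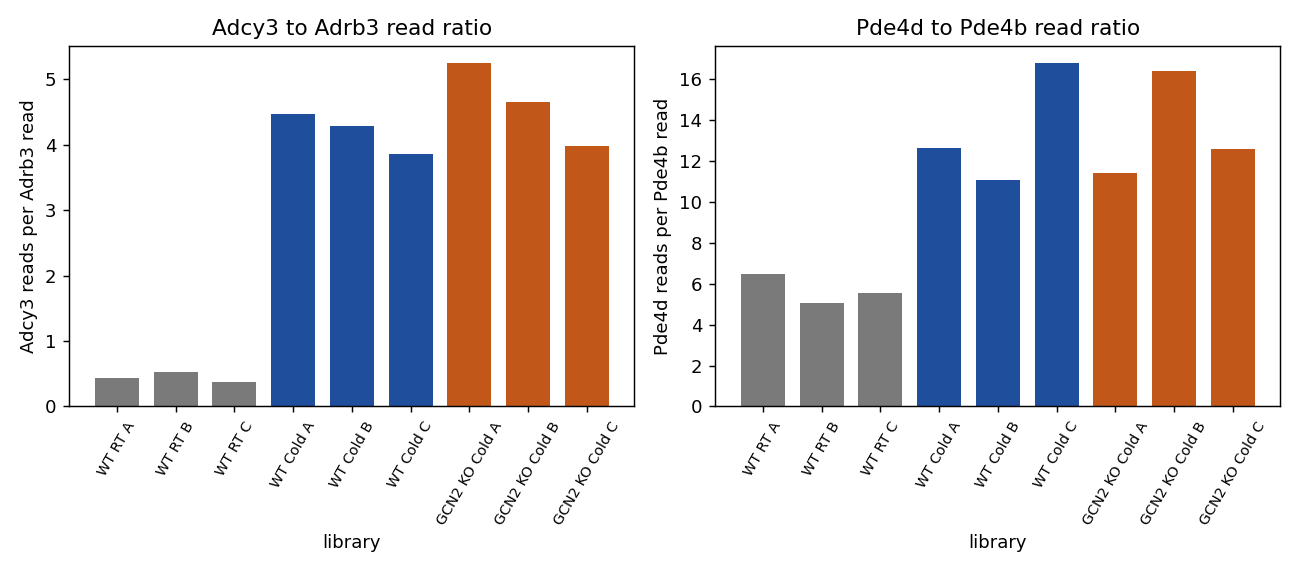
Left, reads of Adcy3 per read of Adrb3 in each of the 9 libraries, with bars from 0; the ratio is 0.366 to 0.532 in the 3 WT RT libraries and 3.85 to 5.24 in the 6 cold libraries. Right, reads of Pde4d per read of Pde4b, which number 5.05 to 6.48 in WT RT and 11.1 to 16.8 in the cold libraries.

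The phosphodiesterases split. Pde4d, a cAMP-specific enzyme of the rolipram-sensitive family (chr13:108449948-109953461), had 2336, 1702 and 1918 normalized counts in WT RT and 3959, 4032 and 5628 in WT Cold. The groups did not overlap, and WT Cold C was the highest library. On the log2 scale it rose by 1.19 (SE 0.16, adjusted p = 0.00221, limma).

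Pde3b, the phosphodiesterase through which insulin lowers cAMP in adipocytes (chr7:114415281-114539251), had 10066, 8972 and 11045 normalized counts in WT RT and 12516, 13539 and 16889 in WT Cold. The groups did not overlap, and WT Cold C was again the highest. On the log2 scale the rise was 0.51 (SE 0.13, adjusted p = 0.0221, limma). Without WT Cold B, WT RT A or WT RT B the adjusted p was 0.0539, 0.0629 and 0.0749.

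Pde4b, of the same family as Pde4d (chr4:102087543-102607259), had 360, 337 and 347 normalized counts in WT RT and 313, 364 and 336 in WT Cold. The groups overlapped, and the log2 fold change was -0.05 with an interval of -0.30 to 0.21 (adjusted p = 0.786, limma). The reads of Pde4d per read of Pde4b thus went from 5.68 ± 0.731 in WT RT to 13.5 ± 2.94 in WT Cold (SD, n = 3 each).

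Of the other 13 cAMP phosphodiesterase genes, 4 rose and 0 fell in WT Cold. Pde7b had a log2 fold change of 1.64 (adjusted p = 0.000132), Pde1c of 2.15 (0.00127), Pde4c of 1.47 (0.00167) and Pde3a of 0.73 (0.00414), all from limma. Among genes of all kinds 13.6% were called higher. Scaled by length, Pde3b gave 49.7 ± 1.90% of the reads of the 16 phosphodiesterase genes in WT RT and 50.6 ± 2.11% in WT Cold, while Pde4d went from 7.47 ± 0.933% to 12.1 ± 1.05% (SD, n = 3). The family sum was 77.0 ± 4.25 CPM per kb in WT RT and 102 ± 9.59 in WT Cold.

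Prkar2b encodes the RII-beta subunit, the regulatory subunit by which adipose tissue holds PKA inactive (chr12:31958476-32061296, minus strand). It had 33903, 33042 and 36062 normalized counts in WT RT and 25128, 21200 and 21357 in WT Cold. The groups did not overlap, with WT Cold A the nearest to WT RT. Its log2 fold change was -0.61 (SE 0.09, adjusted p = 0.00308, limma). Of the other regulatory subunit genes, Prkar1a rose with a log2 fold change of 0.54 (adjusted p = 0.00444) and Prkar2a with 0.61 (0.00773), while Prkar1b did not pass (0.07, adjusted p = 0.856, limma). Prkar2b gave 84.7 ± 0.138% of the length-scaled reads of the 4 regulatory subunit genes in WT RT and 71.4 ± 1.42% in WT Cold, and Prkar1a 13.5 ± 0.0957% and 25.3 ± 1.09% (SD, n = 3). The PKA inhibitor gene Pkig rose (0.95, adjusted p = 0.00221) and Pkib fell (-1.59, adjusted p = 0.00885, limma), the latter at a mean of 11.6 normalized counts in WT Cold. The catalytic subunit gene Prkaca, which lies outside the naming rule, had a log2 fold change of -0.52 with an adjusted p of 0.0514 (limma) and 0.0196 (DESeq2).

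Further along the pathway, 5 of 9 genes that cAMP is known to induce rose and 0 fell (limma), where 13.6% of all genes were called higher. Among the 5 were Dio2, which makes active thyroid hormone (log2 fold change 3.63), Nr4a3, a nuclear receptor (3.19), Ppargc1a, a coactivator of mitochondrial genes (2.70), and the uncoupling protein gene Ucp1 (1.02). The early genes Fos (-0.02), Sik1 (-0.11), Nr4a1 (0.45) and Nr4a2 (0.30) did not pass. Crem (0.92) and Creb1 (0.31) rose among the 6 CREB and CRTC genes.

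Of 9 receptor desensitization genes, 0 rose and 4 fell, the beta-arrestin genes Arrb1 (-0.9995) and Arrb2 (-0.94) and the receptor kinase genes Grk5 (-0.57) and Grk6 (-0.28), by limma. With DESeq2, 3 of the 9 passed, and Grk6 did not (adjusted p = 0.0474 with limma and 0.061 with DESeq2). Of 12 other G protein genes, 0 rose and 4 fell, with Gnai1 (-1.03), Gnao1 (-1.02) and Gnai2 (-0.41) of the inhibitory class and the beta subunit gene Gnb2 (-0.35). Among genes of all kinds 14.1% were called lower. Macrophages also express Arrb2 and Gnai2, and the macrophage marker sums given for these groups were lower in the same libraries. Their part in these values was not tested.

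Other Gs-coupled receptors went both ways. Gpr3, a receptor active without ligand (log2 fold change 2.59, at a mean of 29.7 normalized counts in WT Cold), and Adora2a, an adenosine receptor (0.85), were higher. Gipr (-1.17, at a mean of 23.2 normalized counts in WT Cold) and the thyrotropin receptor gene Tshr (-0.87) were lower. Of 11 A-kinase anchoring protein genes tested, 3 were higher and 3 lower, against 13.6% and 14.1% of all genes. The smallest limma p values were those of Akap1 (-0.69), Akap8 (0.42), Akap7 (-1.02) and Akap5 (-1.45). Akap5 had a mean of only 11.6 normalized counts in WT Cold. Neither Epac gene passed in this comparison in limma (1 of the 2 at an unadjusted p under 0.05, as for 40.9% of all genes, 1 with DESeq2 and 0 with edgeR).

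**Figure D3:**
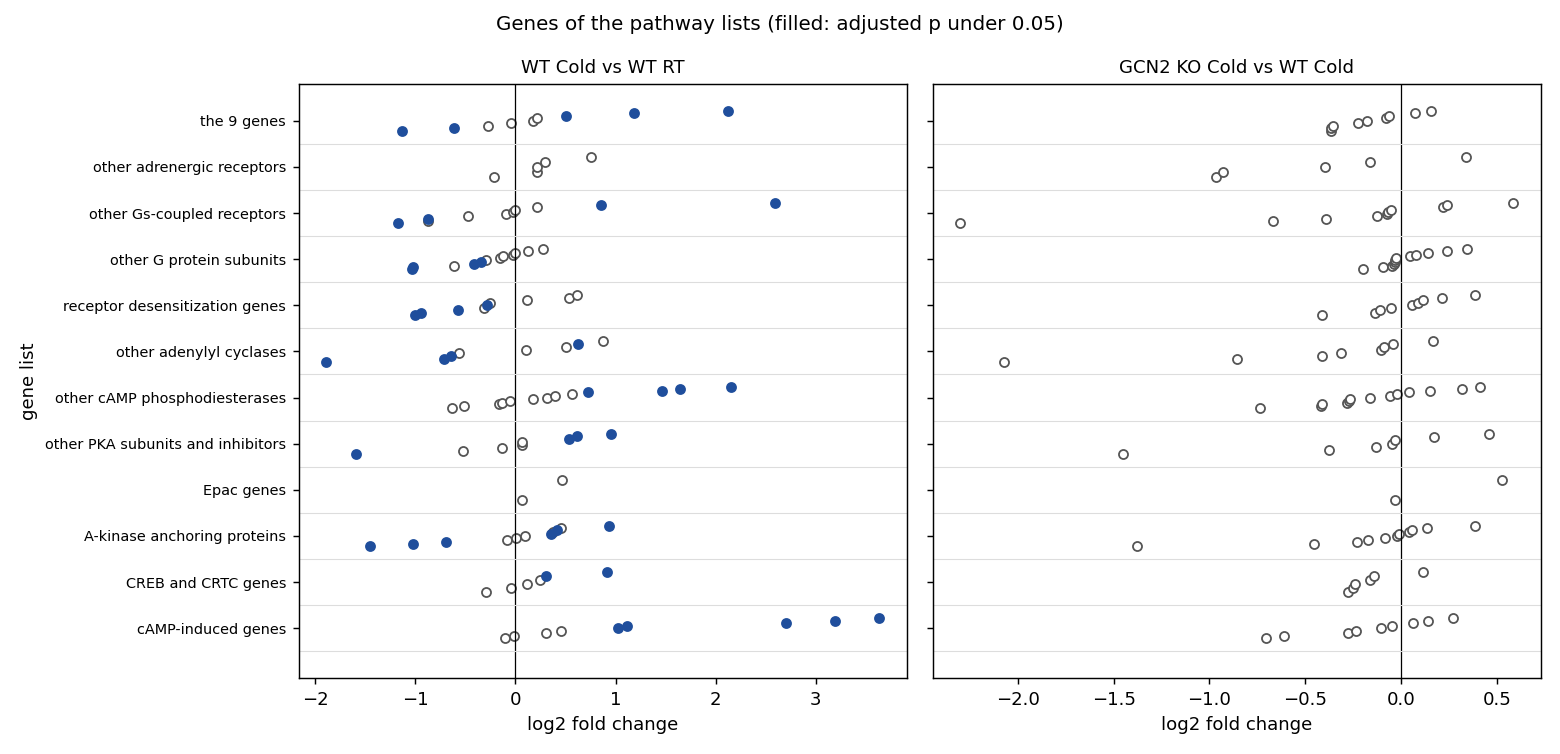
Log2 fold change (x axis) of each gene in the 9 genes and 11 further lists of the pathway (y axis), in WT Cold against WT RT (left) and GCN2 KO Cold against WT Cold (right), on separate x scales. Each point is a gene, filled where the adjusted p from limma is under 0.05; on the left 5 of the 9 genes are filled and on the right none.

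The libraries with the GCN2 KO Cold label were compared with WT Cold to ask whether the pathway differed between genotypes in the cold. None of the 9 genes passed the test in limma, DESeq2 or edgeR, where 0.405%, 3.22% and 0.27% of all 16312 genes did. At an unadjusted p under 0.05 there were 3 of the 9 (Adcy3, Adrb3 and Pde4d) and 15.3% of all genes, and these were also the 3 whose groups did not overlap, against 22% of all genes. All 3 had the lower values in the group labelled GCN2 KO Cold.

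Adcy3 had 13922, 13585 and 14417 normalized counts in WT Cold and 10933, 12772 and 12211 in the libraries with the GCN2 KO Cold label, with library A lowest. The log2 fold change was -0.23 with a 95% interval of -0.41 to -0.04 (adjusted p = 0.247, limma). That interval lies well short of the rise with cold in wild-type mice, which was 2.12 in a comparison normalized separately. Both groups here were in the cold, so whether the rise of Adcy3 differs between genotypes was not tested.

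Adrb3 had 3121, 3167 and 3745 normalized counts in WT Cold and 2085, 2748 and 3073 in the libraries with the GCN2 KO Cold label, again with library A lowest. The gap between the groups was narrow, from 3073 to 3121. The log2 fold change was -0.36 with an interval of -0.71 to -0.01 (adjusted p = 0.316, limma), and without library A it was -0.20 (adjusted p = 0.502).

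Pde4d had 3518, 3608 and 5000 normalized counts in WT Cold and 3322, 3353 and 2663 in the libraries with the GCN2 KO Cold label, and WT Cold C again stood above the rest. The log2 fold change was -0.37 with an interval of -0.73 to -0.002 (adjusted p = 0.323, limma), and without WT Cold C it was -0.20 (adjusted p = 0.439).

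Pde4b had 278, 326 and 298 normalized counts in WT Cold and 291, 205 and 212 in the libraries with the GCN2 KO Cold label. Only library A of the latter fell within the range of WT Cold. The log2 fold change was -0.36 with an interval of -0.75 to 0.02 (adjusted p = 0.352, limma). The other members overlapped between the groups, with log2 fold changes of 0.16 for Prkar2b (interval -0.08 to 0.40), -0.18 for Pde3b (-0.46 to 0.10), -0.08 for Adra1a (-0.33 to 0.17), -0.06 for Gnas (-0.29 to 0.17) and 0.07 for Adrb1 (-0.49 to 0.64). All 5 intervals include 0, and these values do not show that the levels were alike.

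Over the 11 further lists, 0 of 92 tested genes passed in limma and 0 in edgeR, with 12 at an unadjusted p under 0.05 (15.3% of all genes were), and 3 passed in DESeq2, as did 3.22% of all genes, so the counts are near or under the background. The 3 were Adcy2 (log2 fold change -2.07, DESeq2 adjusted p = 0.000119), Pkia (-1.45, 0.000183) and Akap6 (-1.38, 0.0445), named after their values were seen. Their fold changes come from limma, whose adjusted p values were 0.0704, 0.106 and 0.161. The sum of the 8 skeletal muscle markers was 1895 to 3117 CPM in WT Cold and 247 to 1150 in the libraries with the GCN2 KO Cold label. Fibroblast markers (356 to 426 and 245 to 322 CPM) and endothelial markers (585 to 715 and 472 to 574) did not overlap in CPM either. Macrophage markers did (50.1 to 97.3 and 34.5 to 55.3). In limma 0 of the 8 skeletal muscle, 4 fibroblast, 5 endothelial and 4 macrophage markers passed, where 0.405% of all genes did. CPM is scaled to total counts, which moved the median log2 fold change of all genes to -0.12 in this comparison. Whether the sums stay apart under another scaling was not tested. The part of muscle, fibroblasts, endothelium and macrophages in the values of this comparison was not tested. Of the cAMP-induced genes, Dio2 had a log2 fold change of 0.14, Ppargc1a of 0.06, Ucp1 of 0.27 and Nr4a3 of -0.61, none of which passed.

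**Figure D4:**
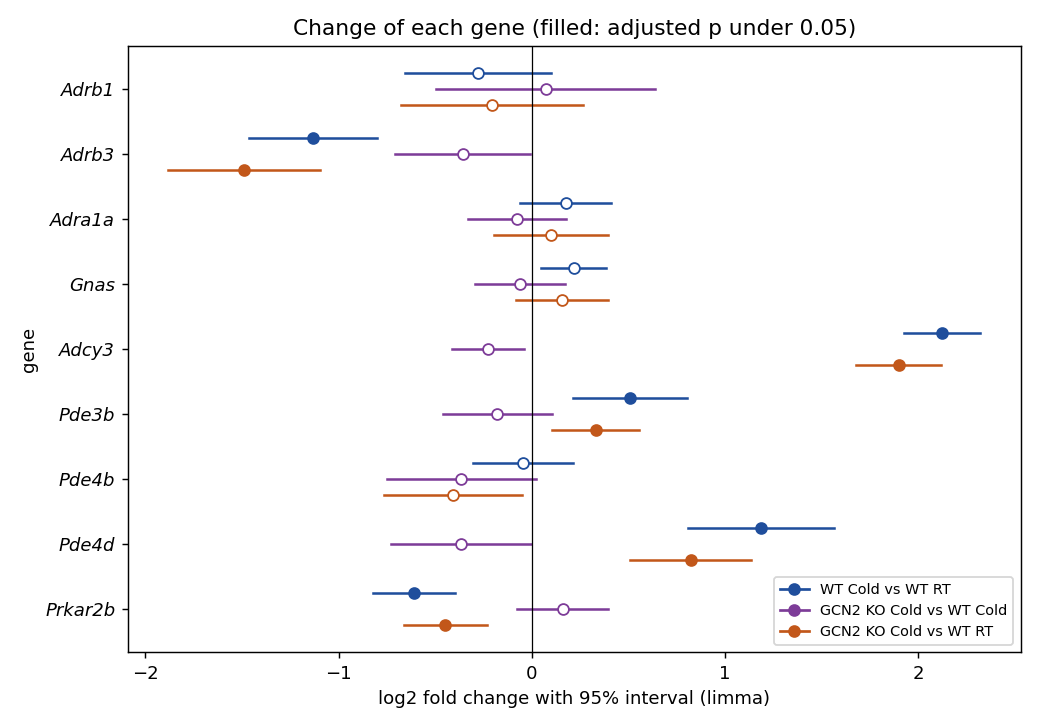
Log2 fold change (x axis, point) with its 95% interval from limma (line) for each of the 9 genes (y axis) in the 3 comparisons, filled where the adjusted p is under 0.05. Adcy3, Pde4d and Pde3b lie to the right of 0 and Adrb3 and Prkar2b to the left in both comparisons with WT RT, and no point is filled in GCN2 KO Cold against WT Cold.

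The libraries with the GCN2 KO Cold label were also compared with WT RT. This comparison shares the WT RT libraries with the first, so their values stand side by side and are not independent. Adcy3 was 3.73 times its level in WT RT (log2 fold change 1.90, adjusted p = 2.63e-05), Pde4d 1.77 times (0.82, 0.00279) and Pde3b 1.26 times (0.33, 0.0327), while Adrb3 was 0.357 times (-1.49, 0.000669) and Prkar2b 0.733 times (-0.45, 0.0075, all from limma). Thus 5 of the 9 genes passed, 3 higher and 2 lower, where 34.2% of all 16560 genes did (16.4% higher and 17.8% lower). In addition, 2 of them (Adcy3 and Adrb3) also had an absolute log2 fold change over 1, as did 10.6% of all genes.

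In this table Adcy3 had 3045, 3632 and 3535 normalized counts in WT RT and 11585, 13604 and 12890 in the libraries with the GCN2 KO Cold label. Adrb3 had 7025, 6831 and 9646 against 2209, 2927 and 3244. The groups were far apart for both. Pde4d had 2202, 1605 and 1809 against 3520, 3571 and 2811, Prkar2b 31946, 31159 and 34018 against 24350, 25584 and 21410, and Pde3b 9485, 8461 and 10419 against 12148, 12593 and 10861, also without overlap. With Pde4b, 6 of the 9 genes did not overlap between these groups, against 49.2% of all genes. The rise of Pde3b did not hold in every fit: its adjusted p was 0.277 with scaling to total counts and 0.0797 to 0.107 without library A or B of the group labelled GCN2 KO Cold or A or B of WT RT.

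Pde4b had 340, 318 and 328 normalized counts in WT RT and 308, 218 and 224 in the libraries with the GCN2 KO Cold label, so the groups did not overlap and library A stood nearest to WT RT. Its log2 fold change was -0.41 with an adjusted p of 0.0768 (limma), and -0.57 with 0.0151 without library A. Gnas (0.16), Adra1a (0.10) and Adrb1 (-0.20) overlapped between the groups. Among the further lists, Pde7b (1.62), Pde1c (2.57), Pde4c (1.30) and Pde3a (0.45) were higher and 0 of the 13 other phosphodiesterases lower. Both Epac genes were higher, Rapgef3 (0.43, adjusted p = 0.0229) and Rapgef4 (0.59, 0.037, limma). Of the 8 other cyclases, 1 was higher (Adcy4, 0.53) and 5 lower, namely Adcy10 (-1.72), Adcy5 (-1.13), Adcy9 (-0.72), Adcy7 (-0.87) and Adcy2 (-1.20). Of the 9 receptor desensitization genes, 1 was higher (Rgs2, 0.83, adjusted p = 0.0405 with limma and 0.0528 with edgeR) and 4 lower, namely Arrb1 (-0.91), Arrb2 (-0.99), Grk2 (-0.38) and Grk6 (-0.39). Among genes of all kinds 16.4% were called higher and 17.8% lower. Pkia was lower (-1.59) in the libraries with the low muscle marker sums.

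Marker sums of other cells differed between these groups too. In WT RT and in the libraries with the GCN2 KO Cold label, macrophage markers summed to 121 to 184 and 34.5 to 55.3 CPM (4 of 4 lower, limma). Skeletal muscle markers summed to 2111 to 2560 and 247 to 1150 (7 of 8 lower in limma, with 3 of 8 passing in DESeq2 and 3 in edgeR). Fibroblast markers summed to 383 to 481 and 245 to 322 (2 of 4 lower, limma). Among all genes 16.4% were called higher and 17.8% lower in limma. Red blood cell markers summed to 214 to 278 and 888 to 1705 CPM (3 of 3 higher), and 5 of the 7 brown adipocyte markers were higher. Their part in the values of this comparison, the lower Arrb1 and Arrb2 among them, was not tested.

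Scaled by exon length, Prkar2b was the highest and Pde4b the lowest of the 9 genes in each group. In WT RT the order was Prkar2b (328 ± 2.74 CPM per kb, SD, n = 3), Gnas (90.5 ± 5.00), Adrb3 (85.4 ± 13.5), Pde3b (38.3 ± 2.66), Adcy3 (20.2 ± 1.89), Adrb1 (7.18 ± 1.05), Adra1a (6.62 ± 0.938), Pde4d (5.77 ± 0.984) and Pde4b (1.15 ± 0.0563). Of neighbours in this order, Gnas and Adrb3, Adrb1 and Adra1a, and Adra1a and Pde4d overlapped between libraries. In WT Cold the order was Prkar2b (203 ± 24.3), Gnas (99.2 ± 4.52), Adcy3 (82.6 ± 2.16), Pde3b (51.5 ± 6.97), Adrb3 (36.5 ± 3.04), Pde4d (12.4 ± 2.28), Adra1a (7.01 ± 0.39), Adrb1 (5.64 ± 1.21) and Pde4b (1.05 ± 0.0758), with no overlap between neighbours. Adcy3 was below Adrb3 and Pde3b in WT RT and above both in WT Cold.

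In the libraries with the GCN2 KO Cold label the order was the same as in WT Cold, with Adcy3 at 65.3 ± 4.88, Adrb3 at 26.6 ± 4.90, Pde4d at 8.83 ± 1.16 and Prkar2b at 209 ± 19.1 CPM per kb (SD, n = 3). Adra1a (6.16 ± 0.865) and Adrb1 (5.53 ± 1.55) overlapped there. Exon lengths are the merged exons of GENCODE M21, so a gene with many alternative exons, such as Gnas or Pde4d, is placed lower than its main transcript would be.

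**Figure D5:**
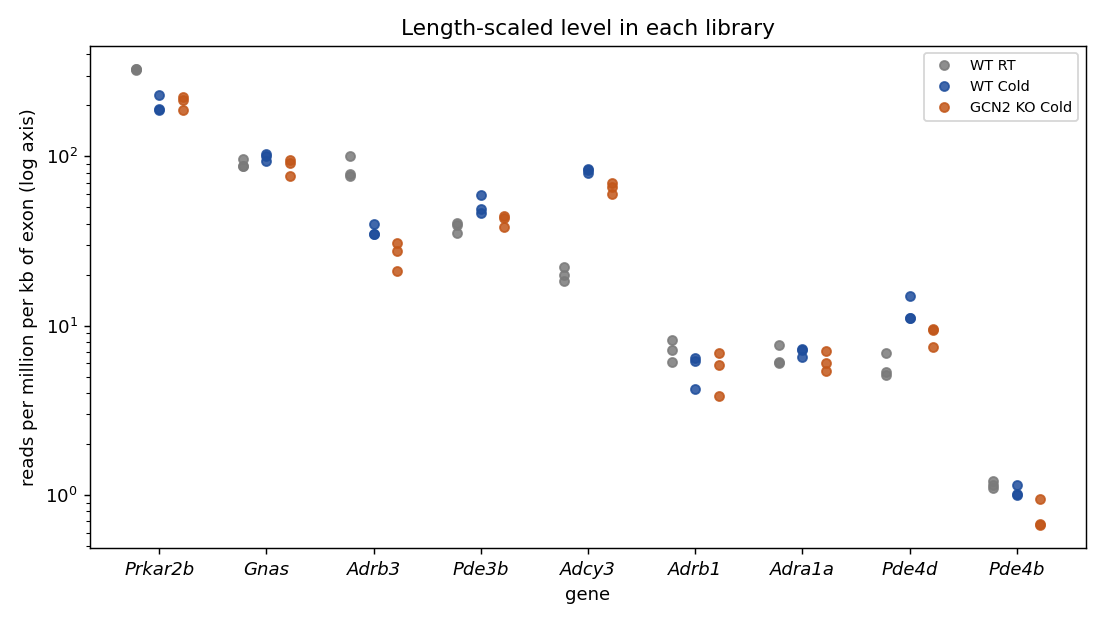
Length-scaled level (CPM per kb of exon, log axis) of the 9 genes (x axis, in the order of WT RT) in each of the 9 libraries, 1 point per library coloured by group. Adcy3 lies at 18.3 to 22.1 in WT RT and 80.2 to 84.4 in WT Cold, and Adrb3 at 77.0 to 101 and 34.6 to 40.0.

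Some genes outside the pathway followed the same course over the 9 libraries. Likeness was the root mean square difference of centred log2 CPM values, over 10524 genes with a mean of at least 5 CPM. Nearest to Adcy3, whose own values spanned 2.19 on the log2 scale, were Gadd45g (difference 0.14), Sav1 (0.16) and Tinagl1 (0.18). Among the nearest to Adrb3, which spanned 2.24, were Dtx2 (0.18) and Mlxipl (0.19), and nearest to Pde4d were Tiparp (0.11), Cebpd (0.11) and Klf9 (0.12). Prkar2b was closest to Tada3 (0.06), Trappc9 (0.07) and Rnf170 (0.07), and Pde3b to Ube2q2 (0.07), Ifngr1 (0.07) and Wdr60 (0.07). For members that varied little, such as Gnas, whose nearest genes included Hnrnpm and Ythdc1 (0.05 each), a small difference says little, since any gene with a flat course is near them. Adra1a was nearest to Arid2, Adrb1 to Ttf2 and Pde4b to Nnt.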

How the data were processed

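RNA from BAT of 9 mice was enriched for poly(A) transcripts, made into libraries and sequenced in pairs by the authors. Per the labels, reads were trimmed with Trimmomatic 0.36, aligned with STAR 2.5.2b and counted per gene with featureCounts (Subread 1.5.2), on build GRCm39. The deposited signal for each gene and library is a read count that the authors divided by a size factor set within each of 3 tables of 6 libraries. The deposited log2 fold changes and p-values of the authors' own comparisons were not used. Library codes in the columns were assigned to groups by the tables in which they occur, and 0 columns belonged to other samples. Whole reads were recovered for 100% of values (tolerance 0.01 read).

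The main test was limma 3.58.1 (R 4.3.3) on log2(value + 1) with a mean-variance trend, for the 2 groups of a table and over all its genes, with Benjamini-Hochberg adjustment. Fold changes are on that scale and are understated for low genes. DESeq2 1.42.0 and edgeR 4.0.16 (quasi-likelihood) were run on the recovered reads because the paper used DESeq2, and the fits were tested on simulated data. Levels across tables are CPM of recovered reads, per kb of merged exon (GENCODE M21, GRCm38) where genes are compared. Positions and promoters are from GRCm38, not from the build of the files. Other alternatives were pseudocounts of 0.5 and 5, a mean of at least 50, TMM or total-count scaling, no trend, all 3 groups in a fit, and each library left out.

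The 9 genes and the lists were chosen with earlier results of these data known. Named were the 9 genes in each comparison, of each pathway list up to 4 genes with the smallest p among those that passed, and for each of the 9 the 3 nearest genes over the libraries; some genes are not reported here. Adcy6, Prkaca, Prkar1b, Adcy2, Akap6, Rgs2, Fos, Sik1, Nr4a1, Nr4a2 and the genes that overlap members lie outside this rule and were picked with their values known, as were Pkia in the cold comparison and Adcy4 in the comparison of GCN2 KO Cold with WT RT. The labels call the replicates biological but no library is tied to a mouse, and p-values measure the spread between these libraries. Data from other tissues were not analysed here.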

Additional observations from a re-analysis of the deposited data

How the results depend on the processing

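Adcy3, Adrb3, Pde4d and Prkar2b kept their direction and an adjusted p under 0.05 in both comparisons with WT RT under all alternatives run, and none of the 9 genes passed in GCN2 KO Cold against WT Cold under any of them. Of 405 values of single genes under an alternative, 379 kept direction and side of the threshold, 11 lost it, 5 gained it and 10 changed sign. The number of the 9 that passed was 4 to 6 in WT Cold against WT RT and 4 to 5 in GCN2 KO Cold against WT RT. Pde3b lost its call without a mean-variance trend (adjusted p 0.064 and 0.0898 in the comparisons with WT RT) and, in GCN2 KO Cold against WT RT, when all 3 groups shared a fit (0.0811) and under total-count scaling (0.277). Gnas passed in WT Cold against WT RT with a mean of at least 50 (0.0475) and with DESeq2 (0.0434), and Pde4b in GCN2 KO Cold against WT RT with total-count scaling (0.0184) and all 3 groups (0.041). Total-count scaling moved the median log2 fold change of all genes to -0.08, -0.12 and -0.19 in WT Cold against WT RT, GCN2 KO Cold against WT Cold and GCN2 KO Cold against WT RT, and with it 3 values that had not passed changed sign, Adrb1 (-0.0455) in the second and Adra1a (-0.10) and Gnas (-0.0453) in the third.

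Leaving out 1 library gave sign changes in values that had not passed: Pde4b in WT Cold against WT RT (-0.10 to 0.0069), Adrb1 (-0.11 to 0.32), Adra1a (-0.18 to 0.0109) and Gnas (-0.12 to 0.0376) in GCN2 KO Cold against WT Cold, and Adrb1 (-0.39 to 0.0402) and Adra1a (-0.008 to 0.20) in GCN2 KO Cold against WT RT. The count of all genes with an adjusted p under 0.05 in WT Cold against WT RT was 4624, and 2907 to 5679 with a library left out. In GCN2 KO Cold against WT Cold it was 66, and 526 with DESeq2, 6 without the trend, 320 with all 3 groups and 3 to 24 with a library left out. Past both thresholds it was 42, and 209, 6, 143 and 3 to 22 in the same order. The cause was not tested, beyond fewer samples in the fits that leave out a library. No paired analysis was possible because the columns carry no replicate numbers. The lowest of the 9 genes, Pde4b, had 205 or more normalized counts in each library, and how much of the spread of its values is counting error was not tested. Groups of 3 were not screened for outlying libraries.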
